A study of Mus musculus with 10 samples.

Results

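The genes that bring pyruvate into mitochondria and govern its first reaction there were examined in the interscapular brown fat (iBAT) of Control and AdCKO mice. They are 10 genes chosen by name: Mpc1, Mpc2, Pdha1, Pdhb, Dlat, Pdk1, Pdk2, Pdk4, Pdp2 and Pcx. All 10 were among the 15075 genes measured, and all 10 passed the minimum level for testing, a group mean of 10 normalized reads per kb, which 11244 genes reached. Of the 10, 9 were lower in AdCKO iBAT, with AdCKO means from 22.0% to 59.7% of the Control means, and the kinase gene Pdk4 was the member that was not called. Over all tested genes, 28.0% were called lower and 25.6% higher.

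Pyruvate from glycolysis crosses the inner mitochondrial membrane through a carrier made of MPC1 and MPC2. In the matrix, the pyruvate dehydrogenase complex turns it into acetyl-CoA, which enters the TCA cycle or supplies fat synthesis, and pyruvate carboxylase turns it into oxaloacetate. Pyruvate dehydrogenase kinases switch the complex off by phosphorylating the subunit that Pdha1 encodes, and phosphatases switch it on again. In adipose tissue and muscle, PDK4 is best known as the kinase that is made when fatty acids are the main fuel.

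Each group held 5 mice with 1 polyadenylated RNA library per mouse, of strain C57BL/6, aged 20 weeks and kept at room temperature. Both groups were homozygous for a Crls1 allele with an exon between loxP sites. AdCKO mice also carried Adipoq-Cre, and Control mice, which the labels call wild-type, had no Cre. The Adipoq promoter is active in brown and white adipocytes, so the other cells of iBAT keep Crls1 and the white fat of the same mice is targeted as well. Crls1 encodes cardiolipin synthase, which makes the signature lipid of the inner mitochondrial membrane.

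Values are normalized reads per kb of counted exon. Summed over genes as normalized reads, the 5 Control libraries held 7615403 to 8171138 and the 5 AdCKO libraries 5419800 to 5843024, so that AdCKO averaged 71.6% of Control, and the depth before normalization is unknown. The level of Crls1 itself in AdCKO averaged 20.5% of that in Control, and its groups did not overlap. Over all tested genes, limma called 2879 higher and 3152 lower in AdCKO at an adjusted p under 0.01. With the same total of normalized reads in every library it called 6811 higher and 1098 lower, and the median log2 fold change of all tested genes moved up by 0.47.

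The tissue did not hold the same cell markers in both groups. The summed level of 9 brown adipocyte markers was 61834 to 84564 normalized reads per kb in Control and 18419 to 39218 in AdCKO, with 6 of the 9 lower, and 5 of 6 general adipocyte markers were lower. All 10 macrophage markers were higher, and their summed level was 635 to 2007 in Control and 7621 to 10376 in AdCKO, while 5 of 6 fibroblast and preadipocyte markers were higher. Of the macrophage markers, Itgam and Fcgr1, with Control means of 5.93 and 6.72, reached the minimum level for testing only in AdCKO. The summed level of 14 skeletal muscle markers ran from 502 to 534 in Control and was 8622, 33604, 319, 12877 and 326 in AdCKO replicates 1 to 5, so that replicates 1, 2 and 4 stood apart. No gene of any kind was at 0 in any library, so a value above 0 does not show that a marker was detected. In bulk RNA, fewer cells of a type and less RNA per cell cannot be told apart, and the part of these shifts in the values of the pyruvate entry genes was not tested, beyond the values without AdCKO replicates 1, 2 and 4 given with the members.

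**Figure D1:**
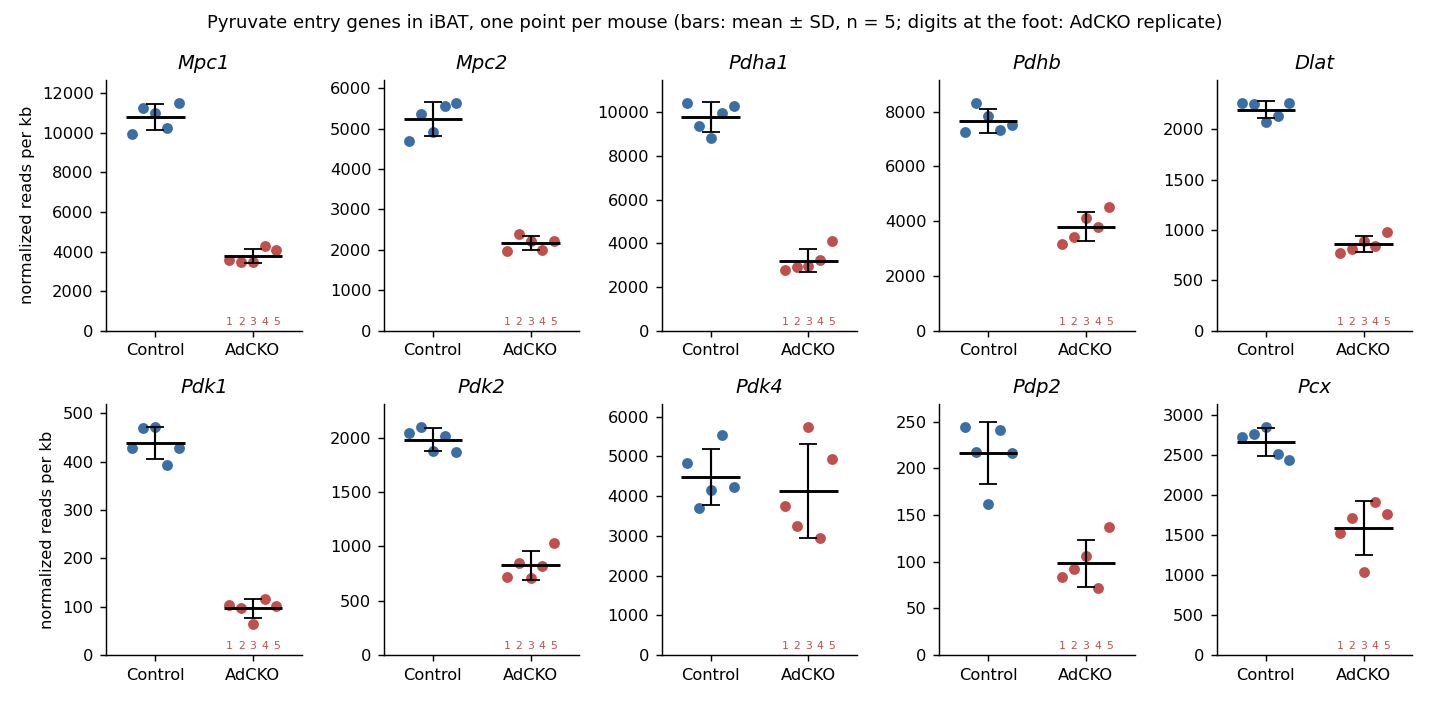
Normalized reads per kb (vertical axes, from 0) of the 10 pyruvate entry genes in each of the 5 Control and 5 AdCKO libraries, with the mean and SD of each group. In 9 panels every AdCKO point lies below every Control point, and in the Pdk4 panel the groups overlap, with AdCKO replicates 3 and 5 highest at 5745 and 4930.2.

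Both carrier genes fell. Mpc1 (NM_018819) is found on chromosome 17 of mm9, plus strand, from 8476678 to 8490526, and 801 bases of its exons were counted. In the Control libraries Mpc1 stood at 9966, 11241, 11006, 10245 and 11538 normalized reads per kb, while the AdCKO libraries held 3574, 3462, 3493, 4270.0 and 4073. Every AdCKO value was less than every Control value, and no library stood far from the rest of its group. The means were 10799 ± 668 and 3774 ± 371 (SD, n = 5 each), for a log2 fold change of -1.52 ± 0.09 (SE, adjusted p = 6.69e-08 by limma), and of -0.71 under quantile normalization (adjusted p = 2.17e-05). Among the tested genes, 28.0% were called lower and 25.6% higher (53.6% in either direction). All AdCKO values lay below all Control values in 26.4% of them and above in 24.5%, or 50.9% in either direction.

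Mpc2 (NM_027430), the partner of Mpc1 in the carrier, lies on the plus strand of chromosome 1, from 167391339 to 167411345. Its levels were 4692, 5365, 4914, 5560.1 and 5643 normalized reads per kb in Control and 1979, 2386, 2228, 1987 and 2205 in AdCKO. The groups did not overlap, and the AdCKO values spread less than the Control values. The log2 fold change was -1.28 ± 0.09 (SE, adjusted p = 1.39e-07 by limma), and -0.66 under quantile normalization (adjusted p = 7.68e-06). The ratio of Mpc1 to Mpc2 per kb in a library had a geometric mean of 2.07 in Control and 1.75 in AdCKO, and the ranges overlapped (exact two-sided permutation test, p = 0.0873, 0.107 after adjustment over 11 ratios). Without AdCKO replicate 4, whose ratio of 2.15 was the highest of the AdCKO group, the log2 difference of this ratio went from -0.24 to -0.32 and its adjusted p was 0.0388 in the same exact test.

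The genes for the catalytic subunits of the pyruvate dehydrogenase complex also fell, and not to the same extent. Pdha1 (NM_008810), which encodes the subunit that carries the regulatory phosphorylation sites, lies on the minus strand of chromosome X, from 156560151 to 156576268. It was measured at 10448, 9354, 8840.5, 9991 and 10311 normalized reads per kb in Control and at 2782, 2913, 2976, 3211 and 4089 in AdCKO. AdCKO replicate 5 was the highest of its group and still well below the lowest Control value. The means were 9789 ± 678 and 3194 ± 524 (SD, n = 5 each), so that AdCKO held 32.6% of the Control level, with a log2 fold change of -1.63 ± 0.11 (SE, adjusted p = 1.61e-07 by limma). Under quantile normalization it was -0.84, and Pdha1 remained called (limma adjusted p = 1.66e-05).

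Pdhb (NM_024221) encodes the other subunit of the same enzyme and lies on the minus strand of chromosome 14, from 8998505 to 9005506. Its Control levels were 7262, 8338, 7862, 7324 and 7531 normalized reads per kb, and its AdCKO levels were 3182, 3403, 4109, 3769 and 4505. The groups did not overlap, and AdCKO replicate 1 was lowest and replicate 5 highest, as for Pdha1. The log2 fold change of -1.02 ± 0.10 (SE, adjusted p = 3.59e-06 by limma) was smaller than that of Pdha1. Under quantile normalization it was -0.22, with an adjusted p of 0.0501 in limma.

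Since the ratio of a gene pair within a library does not change with the scaling of that library, the subunits were also compared as ratios. The level of Pdha1 per kb was 1.44, 1.12, 1.12, 1.36 and 1.37 times that of Pdhb in the Control libraries and 0.874, 0.856, 0.724, 0.852 and 0.907 times in the AdCKO libraries. Pdha1 was thus the higher of the pair in all 5 Control libraries and the lower in all 5 AdCKO libraries. The geometric means were 1.28 and 0.840, and the groups differed (p = 0.0079 in the exact two-sided permutation test, which cannot go lower with 5 against 5, and 0.0125 after adjustment over the 11 ratios).

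Dlat (NM_145614), the acetyltransferase that carries the lipoyl arms and forms the core of the complex, lies on the minus strand of chromosome 9, from 50442738 to 50467885. Its levels were 2263, 2249.9, 2078, 2134 and 2268 normalized reads per kb in Control and 772, 814, 893, 838 and 977 in AdCKO. These were tight groups far from each other, with SDs of 86.9 and 79.2. The log2 fold change was -1.36 ± 0.08 (SE, adjusted p = 3.45e-08 by limma). The ratio of Dlat to Pdha1 had a geometric mean of 0.225 in Control and 0.271 in AdCKO, and AdCKO replicate 5, at 0.239, lay inside the Control range, which reached 0.241 (exact permutation test, p = 0.0159, adjusted 0.0218).

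The 3 kinase genes among the members did not move together. Pdk1 had the largest log2 fold change of the 10 members, Pdk2 fell about as far as the carrier gene Mpc2, and Pdk4 did not pass the test. The bases just upstream of their RefSeq start sites are shown because these kinases act on the same subunit and differed in response. Each run holds 250 bases from 5′ to 3′ and ends at the base before the start site (RefSeq, build GRCm38.p6; Pdk1 chr2:71872974-71873223, plus strand; Pdk2 chr11:95041372-95041621, minus strand; Pdk4 chr6:5496279-5496528, minus strand), and capitals mark ACGTG, one form of the core of hypoxia response elements, on either strand.
Pdk1: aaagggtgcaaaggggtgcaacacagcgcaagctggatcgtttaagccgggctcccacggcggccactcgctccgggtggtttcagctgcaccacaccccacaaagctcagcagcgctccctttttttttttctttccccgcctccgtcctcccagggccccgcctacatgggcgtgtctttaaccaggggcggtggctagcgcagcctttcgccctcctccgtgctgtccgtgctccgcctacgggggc
Pdk2: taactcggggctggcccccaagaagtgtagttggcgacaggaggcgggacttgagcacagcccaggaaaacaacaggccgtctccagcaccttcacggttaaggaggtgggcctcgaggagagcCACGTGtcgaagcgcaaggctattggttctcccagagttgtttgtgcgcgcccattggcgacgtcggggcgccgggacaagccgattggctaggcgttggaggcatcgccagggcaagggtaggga
Pdk4: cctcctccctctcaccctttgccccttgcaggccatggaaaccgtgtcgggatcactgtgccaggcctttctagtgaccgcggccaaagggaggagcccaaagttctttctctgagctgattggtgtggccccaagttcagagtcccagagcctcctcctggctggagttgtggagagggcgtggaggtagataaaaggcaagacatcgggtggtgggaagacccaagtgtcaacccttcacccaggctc
ACGTG occurred in the Pdk2 window, in a palindrome that gives a match on both strands, and was not found in the windows of Pdk1 and Pdk4. The other form of the core, GCGTG, was not searched for or marked, and the printed windows of Pdk1 and Pdk4 each hold it. Across the 10 members, 4 windows held ACGTG (Pcx, Pdhb, Pdk2 and Pdp2), against 16.6% of 32851 promoter windows of the same length. TCAAGGTCA (bound by estrogen-related receptors), TGATGCAAT (C/EBP-ATF), TGACGTCA (CRE) and TGTTTAC (FOXO), and the longer DR1 and NRF1 motifs, searched on both strands, had no match in the 10 windows, and between 0.0335% and 3.17% of all windows held each of them. The GC content was 64.0% in the Pdk1 window, 62.4% in the Pdk2 window and 58.8% in the Pdk4 window, against a median of 52.4% over all windows. Over the 10 members it ran from 58.8% (Pdk4) to 73.6% (Mpc1). Since ACGTG itself contains CG, the 16.6% of all windows is not a background matched to the members.

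Pdk1 (NM_172665) is found on chromosome 2 of mm9, plus strand, from 71711281 to 71741915. Its kinase is the isoform best known as a target of the hypoxia factor HIF-1. Hif1a, one of the listed regulators, was not called (log2 fold change 0.05, limma adjusted p = 0.701), and a part of HIF-1 was not tested. It was measured at 429, 470, 472, 393 and 428 normalized reads per kb in Control and at 102, 98.0, 64.4, 117 and 101 in AdCKO. AdCKO replicate 3 was the lowest library, and even replicate 4, the highest of the group, lay far under the lowest Control value. The means were 439 ± 33.0 and 96.6 ± 19.3 (SD, n = 5 each), for a log2 fold change of -2.19 ± 0.13 (SE, adjusted p = 6.65e-08 by limma), and 0.462% of the tested genes had a lower log2 fold change.

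Pdk2 (NM_133667), the broadly expressed isoform, lies on the minus strand of chromosome 11, from 94887572 to 94902685. Its levels were 2048, 2103, 1882, 2022 and 1868 normalized reads per kb in Control and 722, 850, 706, 820 and 1031 in AdCKO. The groups did not overlap, and AdCKO replicates 3 and 5 were its lowest and highest. The log2 fold change was -1.28 ± 0.10 (SE, adjusted p = 4.39e-07 by limma). The ratio of Pdk1 to Pdk2 fell from a geometric mean of 0.221 in Control to 0.116 in AdCKO, without overlap (exact permutation test, p = 0.0079, adjusted 0.0125).

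Pdk4 (NM_013743) lies on the minus strand of chromosome 6, from 5433351 to 5446278. Its levels were 4823, 3689, 4144, 5528 and 4237 normalized reads per kb in Control and 3761, 3239, 5745, 2957 and 4930.2 in AdCKO. AdCKO replicate 3 held the highest value of all 10 libraries and replicate 4 the lowest, so the AdCKO range enclosed the Control range. The means were 4484 ± 709 and 4126 ± 1178 (SD, n = 5 each). Its log2 fold change was -0.15 ± 0.18 (SE, 95% interval -0.55 to 0.24), which did not pass (limma adjusted p = 0.478; exact permutation test, p = 0.476). The interval leaves room for a moderate change in either direction.

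The sign of the Pdk4 difference depended on the libraries and the scaling. Among the AdCKO libraries, replicates 3 and 5, with muscle marker sums of 319 and 326, held the most Pdk4, and replicates 1, 2 and 4, with sums from 8622 to 33604, held the least. Without replicates 1, 2 and 4, the log2 fold change of Pdk4 was 0.26 (limma adjusted p = 0.197). With the same total of normalized reads in every library it was 0.33 (limma adjusted p = 0.124), or -0.13 relative to the median of all genes, and under quantile normalization it was 0.58 (limma adjusted p = 0.0141). As a share of all normalized reads of its library, Pdk4 was 0.156% to 0.246% in Control and 0.180% to 0.366% in AdCKO.

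**Figure D2:**
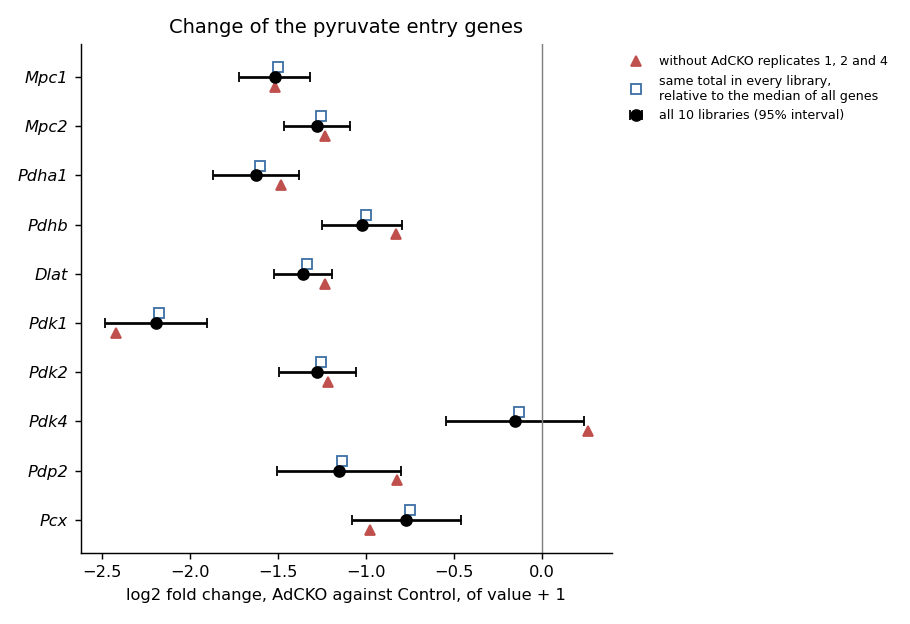
Log2 fold change of each pyruvate entry gene on the scale of log2(value + 1), AdCKO against Control, with the 95% interval of the fit to all 10 libraries, the value without AdCKO replicates 1, 2 and 4, and the value with the same total in every library minus the median of all genes. For 9 genes all 3 values are negative, and for Pdk4 they are -0.15, 0.26 and -0.13. Equal totals move all genes by a similar amount, and subtracting the median takes that shift away. The last value therefore nearly repeats that of the fit to all libraries and is not a separate check. Quantile normalization is not drawn, and it gave -0.22 for Pdhb, -0.30 for Pcx and 0.58 for Pdk4.

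Against the other kinases, Pdk4 took up more of the kinase transcript. The ratio of Pdk4 to Pdk2 per kb was 2.35, 1.75, 2.20, 2.73 and 2.27 in the Control libraries and 5.21, 3.81, 8.14, 3.61 and 4.78 in the AdCKO libraries. Every AdCKO ratio was above every Control ratio, and replicate 3 was the highest. The geometric mean rose 2.18-fold, from 2.24 to 4.89 (exact permutation test, p = 0.0079, adjusted 0.0125).

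Pdk3, the fourth kinase gene and not a member, was higher in AdCKO at a very low level: 7.43 ± 0.44 normalized reads per kb in Control against 14.4 ± 1.84 in AdCKO (mean ± SD of 5 libraries). Its Control mean lay under the minimum level for testing, which it reached only in AdCKO. Of the summed Pdk1 to Pdk4 level per kb, Pdk4 made up 66.0%, 58.8%, 63.7%, 69.5% and 64.8% in the Control libraries and 81.7%, 77.1%, 88.0%, 75.7% and 81.2% in the AdCKO libraries. The lowest AdCKO share was thus above the highest Control share. The mean share of Pdk2 went from 28.9% to 16.9% and that of Pdk1 from 6.42% to 2.04%, while Pdk3 stayed under 1% of the sum in every library. The summed level itself was 6915 ± 698 in Control against 5063 ± 1169 in AdCKO (SD, n = 5). The exact two-sided permutation test of these sums gave p = 0.0238, without adjustment. The groups overlapped, because AdCKO replicate 3, at 6529, exceeded 2 of the Control libraries.

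**Figure D3:**
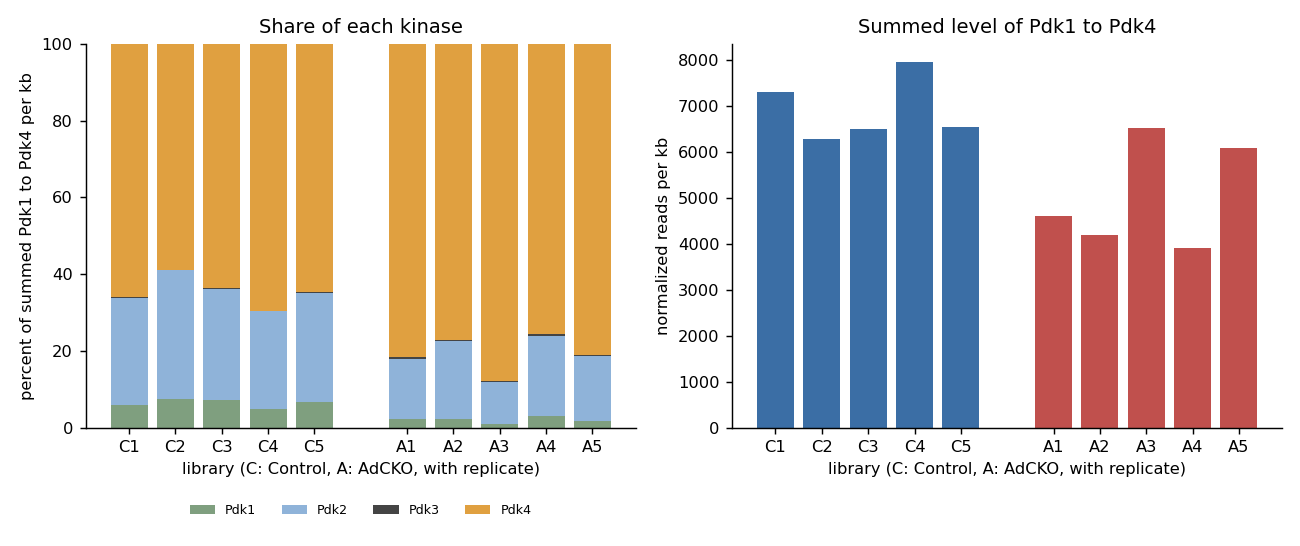
Share of each of Pdk1 to Pdk4 in the summed kinase level per kb (left, percent) and the summed level (right, normalized reads per kb), for Control libraries C1 to C5 and AdCKO libraries A1 to A5. Pdk4 makes up 58.8% to 69.5% of the sum in Control and 75.7% to 88.0% in AdCKO, and the summed level overlaps between the groups.

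The kinase and its substrate changed order. The level of Pdk4 per kb was 0.462, 0.394, 0.469, 0.553 and 0.411 times that of Pdha1 in the Control libraries and 1.35, 1.11, 1.93, 0.921 and 1.21 times in the AdCKO libraries. In Control Pdk4 was the lower of the pair in all 5 libraries, and in AdCKO it was the higher in all but replicate 4. The geometric mean rose 2.78-fold, from 0.455 to 1.26 (exact permutation test, p = 0.0079, adjusted 0.0125). Among the 10 members, Pdk4 had the 5th highest mean per kb in Control and the highest in AdCKO. The AdCKO ranges of Pdk4, Pdhb, Mpc1 and Pdha1 overlapped, so the order of these 4 is not settled, and Pdk4 was the highest member in replicates 1, 3 and 5 and the 3rd and 4th highest in replicates 2 and 4.

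Pdp2 (NM_001024606), which encodes a phosphatase that removes the inhibitory phosphates, lies on the plus strand of chromosome 8, from 107115368 to 107120749. Its levels were 244, 217, 161, 241 and 217 normalized reads per kb in Control and 83.0, 92.5, 106, 71.9 and 137 in AdCKO. The closest libraries of the groups were Control replicate 3 and AdCKO replicate 5, and they did not overlap. The log2 fold change was -1.15 ± 0.16 (SE, adjusted p = 5.18e-05 by limma). The ratio of Pdp2 to Pdk2 had geometric means of 0.108 and 0.117 with overlapping ranges (exact permutation test, p = 0.476, adjusted 0.524).

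Pcx (NM_001162946) encodes pyruvate carboxylase, a biotin enzyme, and lies on the plus strand of chromosome 19, from 4510472 to 4621752. Its levels were 2725, 2761, 2850.5, 2510.5 and 2442 normalized reads per kb in Control and 1525, 1709, 1037, 1909 and 1756 in AdCKO. AdCKO replicate 3, the library with the most Pdk4, was the lowest, and the groups did not overlap. The means were 2658 ± 174 and 1587 ± 337 (SD, n = 5 each), and the log2 fold change of -0.77 ± 0.14 (SE, adjusted p = 0.000458 by limma) was the smallest of the 9 called. It was -0.29 with the same total in every library (limma adjusted p = 0.0603), or -0.75 relative to the median of all genes, and -0.30 under quantile normalization (adjusted p = 0.0929), so that the call was lost under both.

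Pyruvate carboxylase and pyruvate dehydrogenase compete for the same substrate. The ratio of Pcx to Pdha1 per kb was 0.261, 0.295, 0.322, 0.251 and 0.237 in the Control libraries and 0.548, 0.587, 0.349, 0.595 and 0.429 in the AdCKO libraries. Every AdCKO ratio was the higher, with AdCKO replicate 3 close to the top of the Control range. The geometric mean rose 1.81-fold, from 0.272 to 0.491 (exact permutation test, p = 0.0079, adjusted 0.0125). Without AdCKO replicates 1, 2 and 4 the log2 difference was 0.51 in place of 0.86.

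Citrate synthase (Cs), which joins acetyl-CoA to oxaloacetate, served as a mitochondrial reference with a log2 fold change of -0.66 (limma adjusted p = 0.000301). The ratio of Mpc1 to Cs fell from a geometric mean of 1.04 in Control to 0.572 in AdCKO. That of Pdha1 to Cs fell from 0.943 to 0.482, and neither ratio overlapped between the groups (exact permutation test, p = 0.0079 for each, adjusted 0.0125). The carrier and dehydrogenase genes thus lay lower relative to Cs in AdCKO. The ratio of Pcx to Cs had geometric means of 0.256 and 0.237 and overlapped (exact permutation test, p = 0.619, adjusted 0.619), and without AdCKO replicate 3 its log2 difference changed sign, from -0.11 to 0.044.

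**Figure D4:**
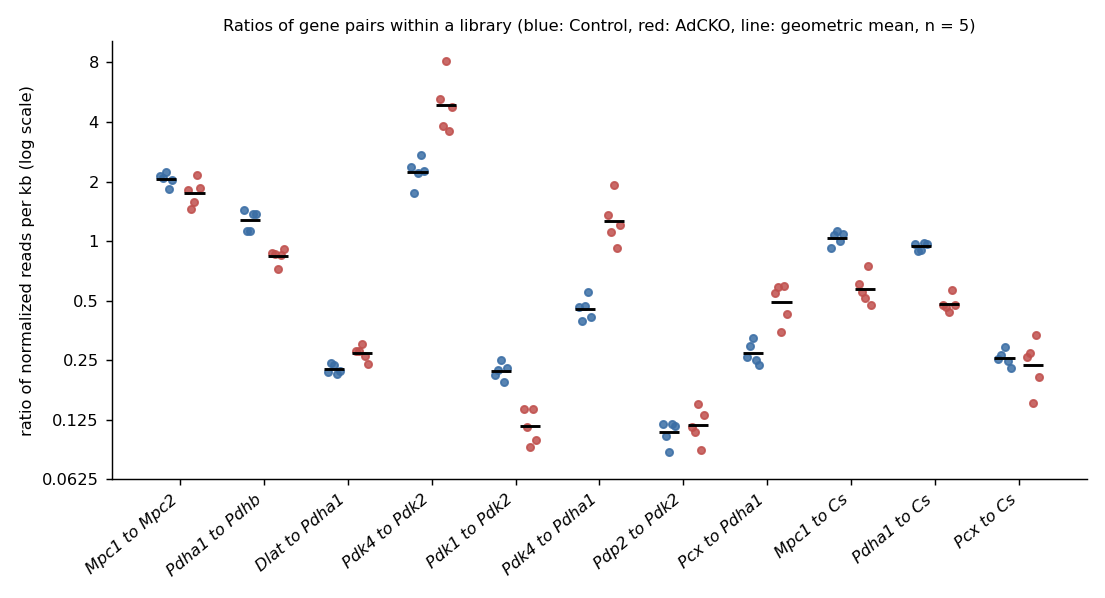
The 11 ratios of gene pairs within each library (ratio of normalized reads per kb, log scale), with 5 Control and 5 AdCKO points and the geometric mean of each group. Of the 11, 7 do not overlap between the groups, and Pdk4 to Pdha1 moves most, from 0.455 to 1.26. Among single tested genes, 50.9% do not overlap, and the share among ratios of other gene pairs was not computed.

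Leaving out the muscle-marked AdCKO libraries kept the sign and the call of the other members. Without replicates 1, 2 and 4, the log2 fold changes were -1.52 for Mpc1, -1.24 for Mpc2, -1.49 for Pdha1, -0.83 for Pdhb and -1.23 for Dlat. They were -2.42 for Pdk1, -1.22 for Pdk2, -0.83 for Pdp2 and -0.97 for Pcx. The limma adjusted p of these 9 ran from 1.45e-06 to 0.00164, with 2 AdCKO libraries left.

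The other genes of the complex went both ways. Of the 5 that were tested, 3 fell and 2 rose, with a median log2 fold change of -0.80 against -0.01 over all tested genes, and Pdha2 was not in the table. Pdpr, the regulatory subunit of the phosphatase, fell from 93.0 to 28.6 normalized reads per kb (log2 fold change -1.68, limma adjusted p = 8.43e-08). Pdhx, which anchors the complex's shared dehydrogenase to its core, fell by 0.80 on the log2 scale, and Dld, that dehydrogenase, fell by 0.97. The 2 that rose were the low isoforms: Pdk3 with a log2 fold change of 0.86 (limma adjusted p = 2.18e-05) and Pdp1, the other phosphatase gene, with 0.78, from 14.0 to 24.8 normalized reads per kb (limma adjusted p = 2.93e-05). In Control, Pdp2 stood higher than Pdp1 per kb and Pdk4 higher than Pdk3, and this order was the same in AdCKO.

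The complex needs lipoate and thiamine, and pyruvate carboxylase needs biotin. Of 10 tested genes for their supply, 7 fell, 1 rose and 2 were not called, with a median log2 fold change of -0.65, and with the same total in every library 4 of the 10 were called lower. Mecr and Mcat, enzymes of the mitochondrial fatty acid synthesis that feeds lipoate, fell by 1.30 and 1.29 on the log2 scale, and Lipt1, a lipoyl transferase, fell by 0.97. Slc19a2, a thiamine transporter of the cell membrane, rose from 25.8 to 54.6 normalized reads per kb (log2 fold change 1.04, limma adjusted p = 4.74e-06), and Slc19a3, with a mean of 0.541 in Control, was under the minimum level.

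Among 14 tested genes that make pyruvate or draw on it by other routes, 9 fell, 3 rose and 2 were not called, with a median of -1.08, and Pklr was not in the table. Ldhd, a D-lactate dehydrogenase, fell from 646 to 105 normalized reads per kb (log2 fold change -2.63, limma adjusted p = 3.45e-08), further than any member. Me3, a mitochondrial malic enzyme, fell from 104 to 19.5 (log2 fold change -2.45, limma adjusted p = 7.69e-07). The genes that rose were Gpt2, the mitochondrial alanine aminotransferase, which interconverts alanine and pyruvate, Pck2, the mitochondrial phosphoenolpyruvate carboxykinase, and Slc16a1, a lactate and pyruvate transporter of the cell membrane.

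Gpt2 stood at 36.0, 36.3, 45.9, 35.0 and 31.1 normalized reads per kb in Control and at 160, 201, 112, 168 and 101 in AdCKO. The groups were far from overlapping, and within AdCKO Gpt2 was lower in replicates 3 and 5, with muscle marker sums of 319 and 326, than in replicates 1, 2 and 4, with sums from 8622 to 33604. The part of the muscle markers in the Gpt2 values was not tested. Its log2 fold change was 1.95 ± 0.18 (SE, adjusted p = 1.29e-06 by limma). Pck2 rose from 30.0 ± 3.48 to 89.4 ± 5.38 (SD, n = 5 each; log2 fold change 1.55, limma adjusted p = 4.6e-08), and Slc16a1 rose from 565 to 802 (log2 fold change 0.49, limma adjusted p = 0.00214).

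The related 2-oxo acid dehydrogenases share the lipoate chemistry of the pyruvate complex. Of 7 tested genes, 5 fell and 2 were not called, with a median of -0.92. Bckdha, of the branched-chain complex, fell by 1.69 on the log2 scale, about as far as Pdha1, and Dlst and Ogdh, of the 2-oxoglutarate complex, fell by 1.27 and 1.11. Bckdk, the kinase of the branched-chain complex, fell by 0.85. In the TCA cycle, 14 of 15 tested genes fell, with a median of -1.35 beside the median of -1.28 of the 10 pyruvate entry genes. The smallest p belonged to Suclg2 (log2 fold change -1.40), Fh1 (-1.56), Sdha (-1.61) and Suclg1 (-1.70), with limma adjusted p from 1.05e-08 to 4.65e-07.

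**Figure D5:**
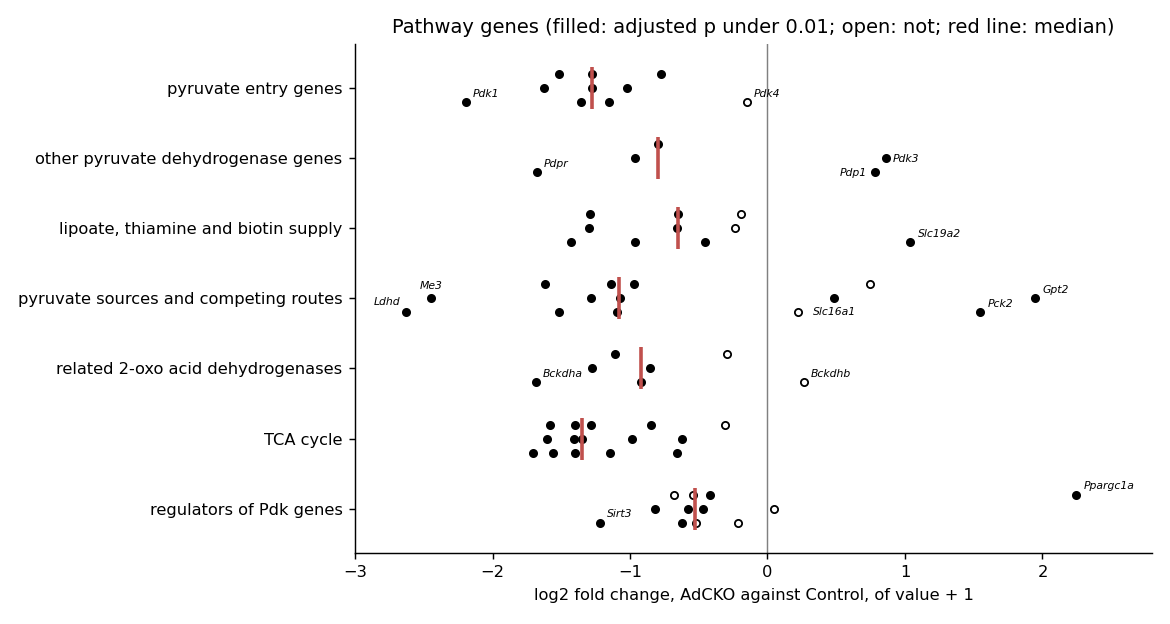
Log2 fold change (AdCKO against Control, on the scale of log2(value + 1)) of the tested pyruvate entry genes and of 6 other lists, with filled points for genes called by limma at an adjusted p under 0.01, open points for the others and a line at each median. The medians of the pyruvate entry genes and the TCA cycle are -1.28 and -1.35, and Gpt2, Pck2 and Ppargc1a lie above 1.5.

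Among 12 tested genes whose products are known to control Pdk genes or the complex, 6 fell, 1 rose and 5 were not called, with a median of -0.53, and Esrrb was under the minimum level. With the same total of normalized reads in every library, 1 of the 12 was called lower and 3 higher. Sirt3 and Sirt4, mitochondrial sirtuins with activity toward the complex, fell by 1.22 and 0.62 on the log2 scale, and Foxo1, a transcription factor that acts on Pdk4 in fasting, fell by 0.58. Ppargc1a, a coactivator of Pdk4 and of mitochondrial genes, stood at 135, 95.6, 83.9, 87.6 and 101 normalized reads per kb in Control and at 452, 327, 901, 247 and 725 in AdCKO. It rose in every AdCKO library, with the highest values in replicates 3 and 5 (log2 fold change 2.24, SE 0.30, adjusted p = 3.7e-05 by limma).

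Over the 5 AdCKO libraries, the order of Ppargc1a was the order of Pdk4, with replicate 3 highest, then 5, 1, 2 and 4, and over the 5 Control libraries the orders differed. This comparison was made after the values had been seen, and the 5 libraries also differ in their muscle markers.

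Some counts of the members may hold reads of other sequences. In mm9, spliced transcripts of Mpc1, Mpc2, Pdha1 and Pdhb matched 3, 2, 2 and 1 other places over at least 200 bases, and those of the other 6 members matched none. The closest copy of Mpc1, on chromosome 12 from 112096280 to 112097029, was identical over 750 bases, and that of Pdhb, on chromosome 1 from 4761186 to 4762625, was 97.0% identical over 1447 bases. The annotation also places a gene on the opposite strand over part of Mpc1 (4930506C21Rik), Pcx (Lrfn4), Pdha1 (Map3k15) and Pdk2 (Gm11513). The sources used here do not say whether reads were counted by strand, so the values of these genes are uncertain to that degree.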

How the data were processed

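The series holds 1 polyadenylated RNA library from the iBAT of each of 5 Control and 5 AdCKO mice, and groups and replicate numbers came from the sample labels. Reads were aligned by the authors to mm9 (STAR), exon counts were taken with iRNA-seq, and DESeq2 was used to normalize. The deposited signal is not a count but is labelled normalized reads per kb of exon, for 15075 genes. It held no value of 0 and no steps of whole reads, and the sources used here do not name a step that would give this. Whether the values understate the spread among mice was not tested, so SDs, SEs and p-values hold for the values as deposited. The authors' own fold changes, p-values and gene lists were not used.

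A pseudocount of 1 was added before log2. Genes that reached a mean of 10 in a group (11244) were tested with limma 3.58.1 in R 4.3.3 (intensity trend, two-sided, Benjamini-Hochberg over all tested genes, threshold 0.01), which was checked on simulated data. Fold changes on this scale understate the change of low genes. The 11 within-library ratios were compared by exact two-sided permutation tests with Benjamini-Hochberg adjustment and a threshold of 0.05. Upstream sequences were from RefSeq (GRCm38.p6), and copies were sought in mm9.

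All 10 members are named. From each other list, the genes with the 4 smallest p, called genes that go against the list, and genes not measured or under the minimum are named. Bckdhb, Dbt, Hif1a, Itgam and Fcgr1 are named outside this rule, as limits on the statements beside them. A gene that this rule picks is not reported here. The members and lists were chosen with earlier results of these data known. Alternatives were other pseudocounts, filters and scalings, other limma settings, a replicate block, leaving out each library and an adjusted p of 0.05, and the fit without AdCKO replicates 1, 2 and 4 was added after seeing the data.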

Additional observations from a re-analysis of the deposited data

How the results depend on the processing

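Of 210 log2 fold changes of the members under alternatives, 204 kept both the sign and the side of the threshold. The exceptions were Pdhb under quantile normalization (-0.22), Pcx with equal library totals (-0.29) and under quantile normalization (-0.30), and Pdk4 with the same total (0.33), under quantile normalization (0.58) and without AdCKO replicates 1, 2 and 4 (0.26). With the same total in every library, limma called 6811 genes higher and 1098 lower. Under that scaling, 4 of the cofactor supply genes were lower, 5 of the pyruvate source genes higher, 1 of the related dehydrogenase genes higher, and 1 of the regulators lower and 3 higher. A related dehydrogenase gene was also called higher, so that the count was 1 in place of 0, under quantile normalization, without AdCKO replicates 1, 2 and 4, and at an adjusted p of 0.05, and with each library left out this count ran from 0 to 1 (it was 1 without AdCKO replicate 4). The count of lower regulators was 3 without AdCKO replicates 1, 2 and 4 and 10 at an adjusted p of 0.05. Of 143 ratio differences under alternatives, 140 kept their sign and their side of an adjusted p of 0.05, the threshold used for the ratios, or, where no test applied, moved by less than the spread between libraries. With each library left out, the log2 difference of Pcx to Cs ran from -0.24 to 0.044 (0.044 without AdCKO replicate 3) and that of Mpc1 to Mpc2 from -0.32 to -0.17 (-0.32 without AdCKO replicate 4). Without AdCKO replicates 1, 2 and 4, that of Pcx to Pdha1 was 0.51. The causes were not tested.

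The labels do not say whether equal replicate numbers mark pairs, and the samples were treated as unpaired. The correlations of the deviations of same-numbered libraries ran from -0.27 to 0.10, which cannot show that no pairing existed. With the replicate number as a block, limma called 2592 genes higher and 2838 lower, and the 9 members stayed called lower (Pdk4 adjusted p = 0.504). A paired exact test of 5 pairs cannot pass the threshold and was not used for the ratios. Between 22.4% and 23.6% of low values lay within 0.1 of a whole read, where 20% is the chance level, so whole reads were not recovered and edgeR and DESeq2 were not run. Because depth before normalization is unknown, counting error cannot be given and only the spread among the 5 mice in the deposited values bears on precision.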

Other observations

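Genes that varied most like a member within the groups were looked for among the 11244 tested genes, by the Pearson correlation over the 10 libraries of log2 values after the mean of the library's own group was subtracted. For Mpc1 they were Scnm1 (0.952), Ropn1l (0.947) and Ncan (0.925), and for Pdha1 they were Nrp2 (0.980), Mib1 (0.953) and Gm14322 (0.952). For Pdk4 they were Ccnl1 (0.968), Hnrnpl (0.965) and B4galt1 (0.962). Of these 9 genes, Nrp2 (log2 fold change -0.58, limma adjusted p = 0.00209) and Ccnl1 (0.69, limma adjusted p = 0.00284) were called between the groups. The correlations are the highest of many over 10 libraries that also share the split in muscle markers, and are given as a description.

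AdCKO replicate 5 held the highest AdCKO value of 5 of the 10 members and the lowest of none, and replicate 1 held the lowest of 4. Replicate 3 was lowest for Pdk1, Pdk2 and Pcx and highest for Pdk4. In the rank of group means over all 15075 genes, Mpc1 went from 29 in Control to 70 in AdCKO, Pdha1 from 32 to 92 and Pdk1 from 1181 to 4471, while Pdk4 went from 111 to 59.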
